A study of Mus musculus with 4 samples.

Results

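The genes described here are the 10 measured members of the MYC network and its regulator Fbxw7: Myc, Mycn, Max, Mxd1, Mxd3, Mxd4, Mxi1, Mnt, Mga and Fbxw7. They were chosen by name and not by a threshold on measured values, and every transcript row that carries 1 of these names was taken. This gave 17 transcript rows of the 30769 in each table, and 10 genes of the 12991 that reached 1 FPKM (fragments mapped to a transcript, scaled to its length and to the library size) in at least 1 library. All 10 genes were at 1 FPKM or more in every library, the lowest value being 1.08 FPKM.

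Poly(A) RNA came from mouse embryonic stem (ES) cells of the C57BL/6X129Sv background, kept below 20 passages in serum with leukemia inhibitory factor. The 4 groups were p53-/- cells given Adriamycin, untreated p53-/- cells, p53+/+ cells given Adriamycin and untreated p53+/+ cells. Adriamycin (doxorubicin) poisons topoisomerase II and breaks DNA, and was used at 0.5 uM for 8 h. Each group had 1 library, so no difference below has a replicate check or a p-value, the number of ES cell lines or clones behind a genotype was not given in the sources used here, and the protocols in the labels also name an exome enrichment kit.

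MYC and MYCN are transcription factors that bind E-box DNA as dimers with MAX and drive genes of growth, ribosome production and metabolism. The MXD proteins, MXI1 and MNT pair with the same partner MAX but recruit SIN3 corepressors, so they act against MYC at shared sites, and MGA joins MAX to a variant Polycomb complex that represses germ cell genes in mouse ES cells. FBXW7 is the substrate receptor of an SCF ubiquitin ligase that marks MYC, MYCN, cyclin E and other phosphorylated proteins for destruction. Its gene has several promoters, and the proteins made from them differ in their first exon and their place in the cell. In human cells the beta transcript of FBXW7 is known as a p53 target.

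Fbxw7 had 3 transcript rows on chromosome 3, which all end at 84783120 in mm9 and begin at 84619499 (NM_001177773), 84668067 (NM_001177774) and 84756133 (NM_080428). The second and the third start thus lay 48568 and 136634 bases downstream of the first. The RefSeq promoter windows of Fbxw7 (build GRCm38.p6, 250 bases before to 50 bases after the start, plus strand) had the same 2 distances between their starts, which ties each window to its transcript. The windows lie at chr3:84815327-84815626, chr3:84863895-84864194 and chr3:84951961-84952260. They are shown because the results for Fbxw7 differed between these starts, and the capitals mark the 50 transcribed bases.
NM_001177773: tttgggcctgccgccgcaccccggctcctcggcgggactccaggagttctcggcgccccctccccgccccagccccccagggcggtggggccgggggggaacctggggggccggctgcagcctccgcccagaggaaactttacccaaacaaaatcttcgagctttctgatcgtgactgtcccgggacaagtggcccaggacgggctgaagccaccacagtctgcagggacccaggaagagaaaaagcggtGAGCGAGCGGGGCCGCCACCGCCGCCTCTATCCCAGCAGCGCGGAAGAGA
NM_001177774: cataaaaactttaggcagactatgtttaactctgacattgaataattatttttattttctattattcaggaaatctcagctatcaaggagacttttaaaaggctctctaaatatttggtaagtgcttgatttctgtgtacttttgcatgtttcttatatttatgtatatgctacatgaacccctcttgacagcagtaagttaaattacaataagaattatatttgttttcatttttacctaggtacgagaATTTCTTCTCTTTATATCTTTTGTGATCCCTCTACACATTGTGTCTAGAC
NM_080428: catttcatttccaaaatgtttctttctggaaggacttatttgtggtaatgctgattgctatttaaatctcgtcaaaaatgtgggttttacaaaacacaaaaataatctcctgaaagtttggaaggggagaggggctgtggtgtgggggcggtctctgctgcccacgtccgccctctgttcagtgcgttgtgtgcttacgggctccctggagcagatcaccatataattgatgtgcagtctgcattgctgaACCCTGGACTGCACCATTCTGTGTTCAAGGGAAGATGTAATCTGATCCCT
The window of NM_001177773 was 69.0% G and C with 24 CpG dinucleotides. That of NM_001177774 was 29.7% G and C with 1 CpG, and that of NM_080428 was 46.0% with 6, against a median of 52.7% over all 32851 promoter windows.

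In GENCODE M21 (GRCm38) the transcripts NM_001177773 and NM_001177774 hold the same coding sequence of 710 codons and differ upstream of it. NM_080428 has 629 codons, of which the 89 in its first exon are its own, and it shares the last 1620 coding bases with the other transcripts. The longer protein is the nuclear alpha form of FBXW7, and the shorter is the beta form, which carries a hydrophobic stretch near its start. The first 120 coding bases of each form are given to show where they part, with the start codon in capitals.
NM_001177773: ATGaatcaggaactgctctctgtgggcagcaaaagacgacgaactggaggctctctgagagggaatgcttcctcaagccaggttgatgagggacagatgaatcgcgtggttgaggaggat
NM_080428: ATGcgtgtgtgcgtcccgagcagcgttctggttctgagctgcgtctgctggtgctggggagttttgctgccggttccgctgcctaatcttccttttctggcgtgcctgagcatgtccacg

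**Figure D1:**
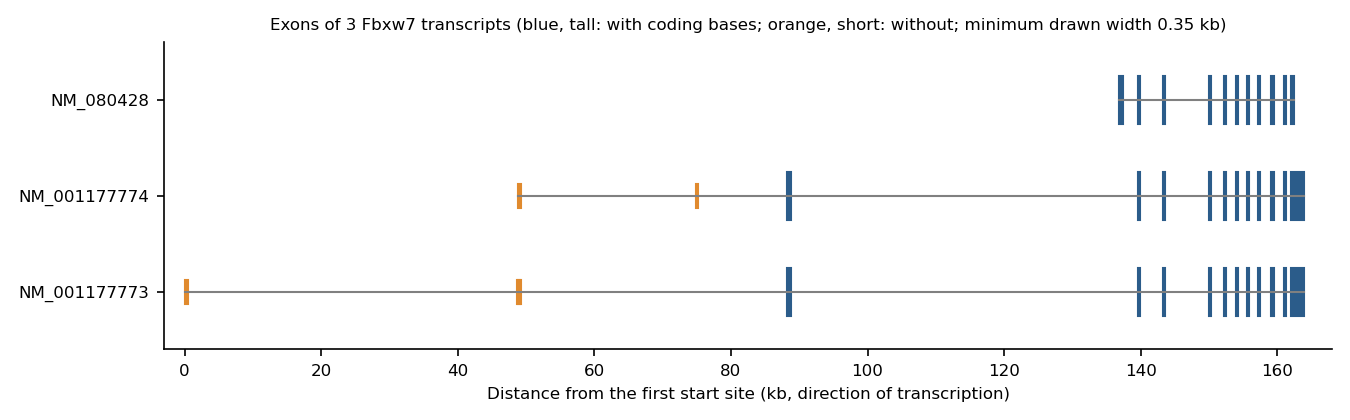
Exons of the 3 Fbxw7 transcripts by distance from the first start site in kilobases, from GENCODE M21 models. Tall blue boxes hold coding bases and short orange boxes do not; NM_080428 begins far downstream with a first exon of its own, and its model ends before those of the other transcripts.

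The libraries differed between the genotypes in more than Trp53. They held 3.52 and 3.34 gigabases of aligned sequence in treated and untreated p53-/- cells and 4.15 and 4.32 gigabases in treated and untreated p53+/+ cells, estimated from coverage times transcript length. Trp53, the targeted gene, summed to 76.5 and 78.6 FPKM in treated and untreated p53-/- cells and to 165 and 216 FPKM in treated and untreated p53+/+ cells, so it was lower but not absent in the libraries labelled p53-/-. How the gene was disrupted is not given in the sources used here, and transcript outside a deleted stretch checks no label. Of 12 ES cell markers, at least 11 reached 1 FPKM in each library, Pou5f1, Nanog and Sox2 among them, and the list summed to 2863 and 3204 FPKM in treated and untreated p53-/- cells and to 2939 and 4315 FPKM in treated and untreated p53+/+ cells. Of the 12 ES cell markers, 0 differed by at least 1 on that scale between treated and untreated p53-/- cells. In treated p53+/+ cells 4 were lower by at least 1 than in untreated ones (Nanog, Zfp42, Tfcp2l1 and Lin28a). Over all genes 0.400% were higher and 0.470% lower in treated than in untreated p53-/- cells. In p53+/+ cells 2.79% of all genes were lower after treatment. Between untreated genotypes, on the log2(FPKM + 1) scale, 1 ES cell marker was higher by at least 1 in p53-/- cells, Dppa3 (3.42). Tfcp2l1 (-2.08) was the 1 lower by at least 1. Between treated genotypes 2 were higher in p53-/- cells, Dppa3 (4.54) and Lin28a (1.86), and 0 lower. Over all genes 3.49% were higher and 3.13% lower between untreated genotypes, and 6.70% and 13.0% between treated ones. Of 12 fibroblast markers, 11 reached 1 FPKM in each p53-/- library, against 4 in treated and 3 in untreated p53+/+ cells. Their levels summed to 495 and 562 FPKM in treated and untreated p53-/- cells. In treated and untreated p53+/+ cells they summed to 90.8 and 110 FPKM, of which Fn1 alone held 76.2 and 101 FPKM. The list medians were 20.5 and 21.5 FPKM in treated and untreated p53-/- cells. They were 0.125 and 0.117 FPKM in treated and untreated p53+/+ cells. Col3a1, Lum, Dcn and Postn were listed at 0 in both p53+/+ libraries. Of 10 primitive endoderm markers, 5 and 4 reached 1 FPKM in treated and untreated p53-/- cells and 9 and 8 in treated and untreated p53+/+ cells, and the list summed to 63.8 and 65.4 FPKM in treated and untreated p53-/- cells and to 152 and 144 FPKM in treated and untreated p53+/+ cells. Of 7 trophoblast markers 4 or 5 reached 1 FPKM in each library, with sums of 68.2 and 73.3 FPKM in treated and untreated p53-/- cells and of 41.8 and 34.9 FPKM in treated and untreated p53+/+ cells. Whether feeder cells, a common source of fibroblasts in ES cell culture, were present is not said in the labels. The part of these marker differences in the results, the Trp53 level of the p53-/- libraries included, was not tested, and in bulk RNA fewer cells of a type and less RNA per cell cannot be told apart.

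The beta transcript NM_080428 was listed at effectively 0 in treated and untreated p53-/- cells, with deposited upper bounds of 0.0249 and 0.0275 FPKM. It stood at 25.2 FPKM in treated p53+/+ cells, with 95% bounds of 23.8 to 26.7 FPKM, against 1.14 FPKM in untreated p53+/+ cells, with bounds of 0.849 to 1.42 FPKM. The bounds of the 4 libraries, which cover counting and read assignment error only, placed treated p53+/+ cells above all others and untreated p53+/+ cells above both p53-/- libraries. The p53+/+ response (treated over untreated) of this transcript was 22.2-fold, or 3.62 on the log2(FPKM + 1) scale, a scale that understates the change of low values. The untreated genotype difference (p53-/- minus p53+/+) of NM_080428 was -1.10, and it was -0.30 with a pseudocount of 5 FPKM.

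The alpha transcripts were not higher in treated than in untreated p53+/+ cells. NM_001177773 stood at 4.36 FPKM (3.87 to 4.84) in treated and 4.77 FPKM (4.26 to 5.30) in untreated p53-/- cells, against 6.54 FPKM (5.87 to 7.22) in treated and 7.85 FPKM (7.18 to 8.53) in untreated p53+/+ cells. Its treated and untreated bounds overlapped within p53-/- cells and, by a small margin, within p53+/+ cells, while both p53+/+ values lay above both p53-/- bounds. NM_001177774 stood at 0.563 and 0.323 FPKM in treated and untreated p53-/- cells and at 0.663 and 2.11 FPKM in treated and untreated p53+/+ cells, so untreated p53+/+ cells were the highest. Without NM_080428, Fbxw7 came to 4.92 and 5.10 FPKM in treated and untreated p53-/- cells and to 7.21 and 9.96 FPKM in treated and untreated p53+/+ cells, a p53+/+ response of -0.42.

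**Figure D2:**
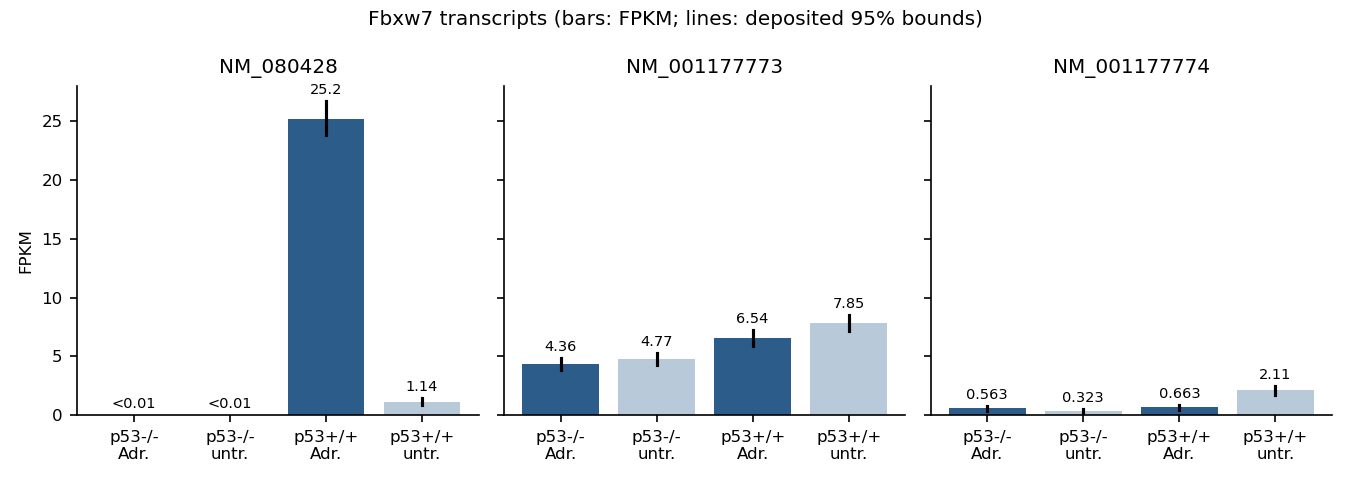
FPKM of the 3 Fbxw7 transcripts in the 4 libraries (bars) with the deposited 95% bounds (lines), on 1 shared axis that starts at 0. NM_080428 reaches 25.2 FPKM in treated p53+/+ cells, while NM_001177773 stays between 4.36 and 7.85 FPKM in all libraries.

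Summed over its transcripts, Fbxw7 stood at 4.92 FPKM in treated and 5.10 FPKM in untreated p53-/- cells, against 32.4 FPKM in treated and 11.1 FPKM in untreated p53+/+ cells. NM_080428 made up 77.8% of the sum in treated and 10.3% in untreated p53+/+ cells. That gain of 67.5 percentage points was matched or passed by 6 other genes, 7 with Fbxw7, among 1836 with several transcripts and at least 5 FPKM in both p53+/+ libraries. A gain of at least 50 points was seen in 0.708% of those genes, and in 0.918% of 1852 genes in the p53-/- response. Fbxw7 was not among these 1852, as its 4.92 FPKM in treated p53-/- cells was under 5 FPKM. NM_001177773 made up 88.6% of Fbxw7 in treated and 93.7% in untreated p53-/- cells. Shares rest on how Cufflinks divided reads of the common exons among transcripts.

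A difference of at least 1 on the log2(FPKM + 1) scale, with transcripts summed, was counted as higher or lower, both for these genes and for all others. In p53-/- cells 0 of the 10 genes were higher and 0 lower after Adriamycin, where 0.400% of all genes were higher and 0.470% lower. In p53+/+ cells 3 were higher (Mxd4, Fbxw7 and Mxd1) and 1 was lower (Mycn), where 11.4% of all genes were higher and 2.79% lower. Counts of 3 and 1 among 10 genes are small ones to set beside those shares. Of the genes past 1 in the p53+/+ response, 80.4% were higher. Under quantile normalization 65.4% were higher, and the median over all genes was -0.10 in place of 0.05. The median of the 10 genes was 0.05 in the p53-/- response and -0.34 in the p53+/+ response, beside 0.07 and 0.05 for all genes.

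Of the 17 transcript rows, 15 reached 1 FPKM in some library, and they were counted in the same way among 15632 rows. In the p53-/- response 0 rows were higher and 0 lower, where 1.55% of all rows were higher and 1.59% lower. After Adriamycin p53+/+ cells had 3 higher rows (NM_080428 and the rows of Mxd1 and Mxd4) and 2 lower ones (NM_008709 of Mycn and NM_001177352 of Myc), where 11.6% of all rows were higher and 4.22% lower. Untreated p53-/- cells had 0 rows higher and 3 lower than untreated p53+/+ cells (NM_080428, NM_001177774 and NM_001177352), where 4.40% of all rows were higher and 4.35% lower. After Adriamycin 2 rows were higher in p53-/- than in p53+/+ cells (NM_008709 and NM_008558 of Max) and 4 lower (NM_080428, NM_001177353 of Myc and the rows of Mxd1 and Mxd4), where 8.19% of all rows were higher and 13.5% lower. The response difference, p53-/- minus p53+/+, was at least 1 in 3 rows (NM_008709, NM_001177774 and NM_001177352) and at most -1 in 2 (NM_080428 and the row of Mxd4), where 5.53% and 11.5% of all rows were. With a pseudocount of 5 FPKM these rows fell short of the step at NM_008558 (0.65) and NM_001177353 (-0.53) between treated genotypes and at NM_001177774 (-0.42) and NM_001177352 (-0.70) between untreated ones, as did the response differences of NM_001177774 (0.39), NM_001177352 (0.73) and NM_008709 (0.92). The single rows of Mxd1 and Mxd4 stand below with their genes.

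**Figure D3:**
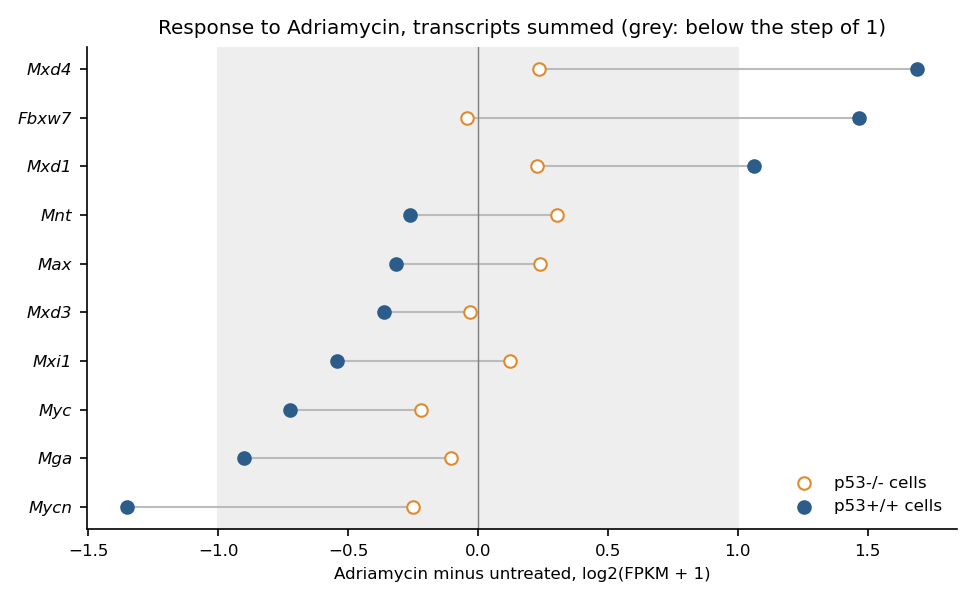
Response of each gene to Adriamycin on the log2(FPKM + 1) scale, with transcripts summed, in p53-/- cells (open circles) and p53+/+ cells (filled circles). All open circles lie between -0.25 and 0.31, and the filled circles run from -1.35 for Mycn to 1.69 for Mxd4.

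Mycn, a MYC paralogue known for its roles in the embryo and in neural progenitors, had the lowest p53+/+ response of the 10 genes. Its single transcript (NM_008709, chromosome 12, 12942899 to 12948642 in mm9) stood at 50.2 FPKM in treated and 59.8 FPKM (53.9 to 59.8) in untreated p53-/- cells, against 13.7 FPKM (12.02 to 14.7) in treated and 36.5 FPKM in untreated p53+/+ cells. No bounds are given where the FPKM lay above its own upper bound. Both p53-/- libraries were above both p53+/+ libraries, and the treated p53+/+ library was the lowest of the 4. The responses were -0.25 in p53-/- cells and -1.35 in p53+/+ cells, a response difference (p53-/- minus p53+/+) of 1.10. Fbxw7 (-1.51) and Mxd4 (-1.46) had response differences of at most -1. Over all genes 3.30% had a response difference of at least 1 and 10.4% of at most -1. Of the genes past the step, 24.0% lay on the higher side as deposited and 34.6% under quantile normalization.

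Myc, the founding member of the family, was highest in untreated p53+/+ cells. Its transcripts on chromosome 15 (61816896 to 61821916 in mm9) summed to 7.31 and 8.67 FPKM in treated and untreated p53-/- cells and to 9.97 and 17.1 FPKM in treated and untreated p53+/+ cells. The p53+/+ response of -0.72 and the untreated genotype difference of -0.91 did not reach the step of 1. Between its rows, NM_001177352 stood at 5.76 FPKM (4.99 to 6.56) in treated and 5.59 FPKM (4.75 to 6.43) in untreated p53-/- cells. In p53+/+ cells it stood at 5.54 FPKM (4.77 to 6.31) in treated and 12.3 FPKM (11.1 to 13.4) in untreated cells. Untreated p53+/+ cells thus stood apart from 3 libraries whose bounds overlapped. This row differed by -1.02 in the p53+/+ response, where 4.22% of transcript rows were lower by at least 1, and by -0.71 with a pseudocount of 5 FPKM. NM_001177353 stood at 1.55 and 3.07 FPKM in treated and untreated p53-/- cells and at 4.43 and 4.88 FPKM in treated and untreated p53+/+ cells. The rows span the same positions and differ in length by few bases, so their division is uncertain.

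Together Myc and Mycn summed to 57.5 and 68.4 FPKM in treated and untreated p53-/- cells, and to 23.7 and 53.6 FPKM in treated and untreated p53+/+ cells. Mycn exceeded Myc in level in every library, 6.86-fold and 6.90-fold in treated and untreated p53-/- cells, and 1.37-fold and 2.13-fold in treated and untreated p53+/+ cells.

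Max, the shared partner, varied little. It stood at 35.9 and 30.3 FPKM in treated and untreated p53-/- cells and at 27.4 and 34.3 FPKM in treated and untreated p53+/+ cells. Its main row NM_001146176 (chromosome 12, 78038256 to 78063235 in mm9) made up between 73.9% and 84.9% of the sum. The p53-/- response was 0.24 and the p53+/+ response -0.31.

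Among the antagonists, Mxd4 and Mxd1 were the ones counted as higher in treated p53+/+ cells. Mxd4 (chromosome 5, 34519229 to 34530359 in mm9), an MXD gene linked to differentiation, stood at 3.79 FPKM (2.596 to 4.45) in treated and 3.06 FPKM (2.06 to 3.87) in untreated p53-/- cells. In p53+/+ cells it stood at 12.1 FPKM in treated and 3.07 FPKM (2.13 to 3.55) in untreated cells, a 3.96-fold response. The treated p53+/+ library alone stood apart, and the other 3 had overlapping bounds. Mxd1 (chromosome 6, 86597039 to 86619153 in mm9), an MXD gene linked to exit from the cell cycle, stood at 1.44 FPKM (1.19 to 1.69) in treated and 1.08 FPKM (0.863 to 1.30) in untreated p53-/- cells. It stood at 4.32 FPKM (3.85 to 4.78) in treated and 1.55 FPKM (1.30 to 1.79) in untreated p53+/+ cells. Again treated p53+/+ cells were above the bounds of the other 3 libraries. The p53+/+ response of Mxd1 was 1.06, just past the step, and fell short of it with a pseudocount of 5 FPKM (0.51), upper quartile scaling (0.98) and quantile normalization (0.71).

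The other antagonists were not counted in either response. Mxi1, on chromosome 19, stood at 8.44 and 7.67 FPKM in treated and untreated p53-/- cells and at 5.72 and 8.78 FPKM in treated and untreated p53+/+ cells. Its row NM_001008543 was listed near 0 in 3 libraries and at 0.328 FPKM (0.195 to 0.463) in treated p53+/+ cells. Mxd3, an MXD gene expressed in dividing cells, stood at 4.45 and 4.56 FPKM in treated and untreated p53-/- cells and at 5.03 and 6.75 FPKM in treated and untreated p53+/+ cells. Mnt, the broadly expressed MAX-binding repressor, stood at 14.1 and 11.2 FPKM in treated and untreated p53-/- cells and at 8.39 and 10.2 FPKM in treated and untreated p53+/+ cells. For Mnt the bounds of treated p53-/- cells (12.9 to 15.0 FPKM) lay above those of treated p53+/+ cells (7.64 to 9.02 FPKM).

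Mga was lower in treated p53+/+ cells, though by less than the step. It stood at 11.6 and 12.5 FPKM in treated and untreated p53-/- cells and at 6.28 and 12.6 FPKM in treated and untreated p53+/+ cells. Its p53+/+ response was -0.90, or -1.11 after quantile normalization. The main row NM_013720 (chromosome 2, 119722964 to 119795317 in mm9) had bounds of 5.95 to 6.62 FPKM in treated p53+/+ cells, below those of the other 3 libraries, which ran from 10.95 to 12.9 FPKM.

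The 4 genes Mxd1, Mxd3, Mxd4 and Mxi1 summed to 18.1 and 16.4 FPKM in treated and untreated p53-/- cells and to 27.2 and 20.2 FPKM in treated and untreated p53+/+ cells. The ratio of Myc plus Mycn to these 4 genes was 3.17 and 4.18 in treated and untreated p53-/- cells, and 0.870 and 2.66 in treated and untreated p53+/+ cells. In the treated p53+/+ library alone did these 4 genes sum to more than Myc and Mycn, on the FPKM scale, which says nothing of protein.

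**Figure D4:**
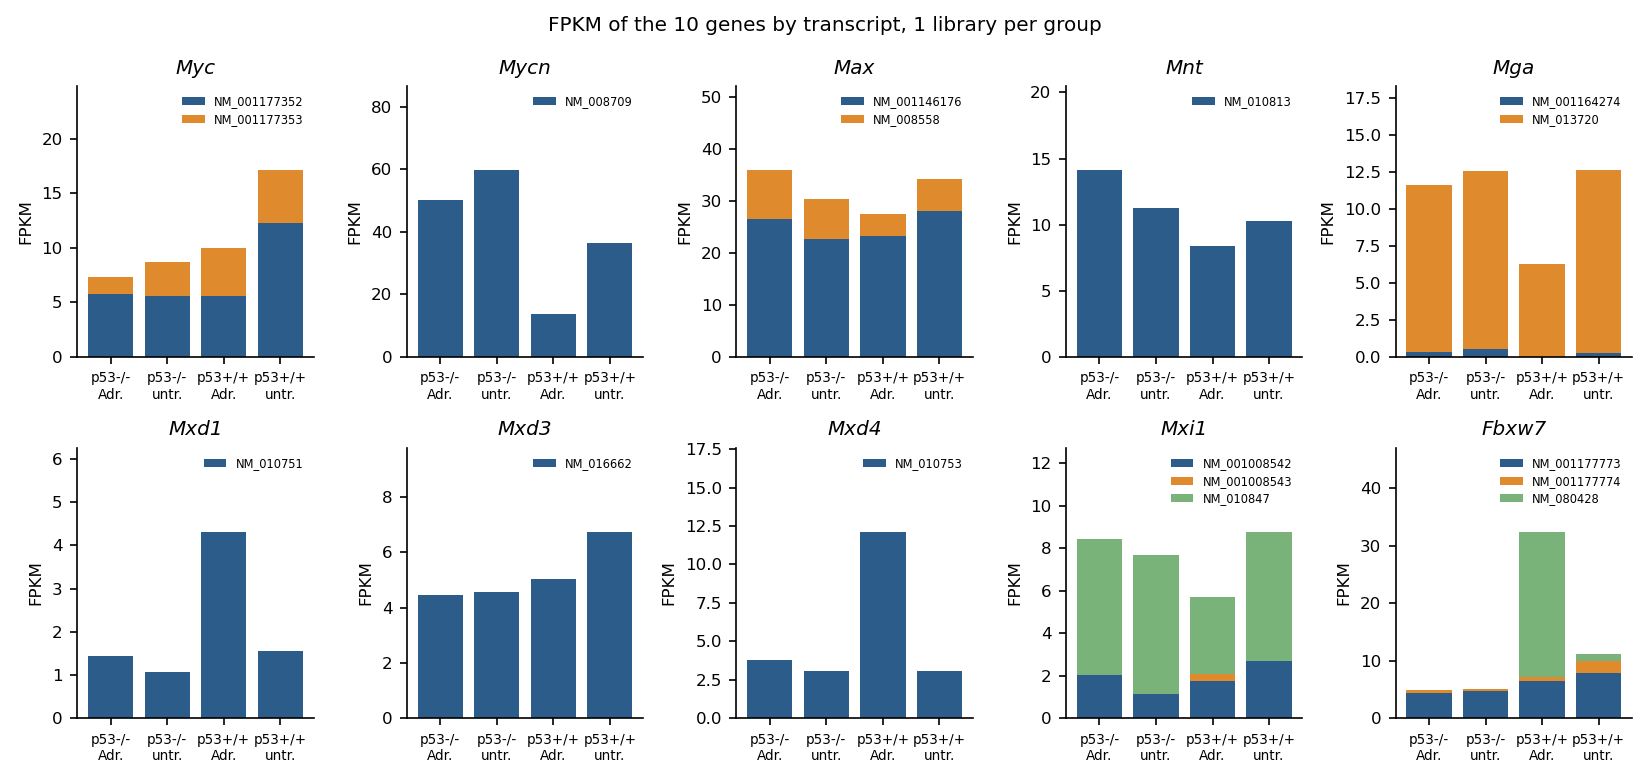
FPKM of the 10 genes in the 4 libraries, stacked by transcript row, each panel on its own axis from 0. Fbxw7 reaches 32.4 FPKM, Mxd4 12.1 FPKM and Mxd1 4.32 FPKM in treated p53+/+ cells, where Mycn is lowest at 13.7 FPKM.

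The top and bottom of the order of levels were alike in all libraries but that of treated p53+/+ cells. In both p53-/- libraries Mycn and Max led, and Mxd3, Mxd4 and Mxd1 came last, with Fbxw7 just before them. In untreated p53+/+ cells Mycn and Max led again and Mxd3, Mxd4 and Mxd1 were again last. The bounds of Mxd4 and Mxd1 did not overlap there. In treated p53+/+ cells Fbxw7 led at 32.4 FPKM, followed by Max at 27.4 FPKM, Mycn at 13.7 FPKM and Mxd4 at 12.1 FPKM. At the lower end of that order Mxd3 (4.18 to 5.87 FPKM) and Mxd1 (3.85 to 4.78 FPKM) were neighbours with overlapping bounds.

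Between the genotypes, 0 of the 10 genes were higher and 0 lower by at least 1 in untreated p53-/- cells than in untreated p53+/+ cells, where 3.49% of all genes were higher and 3.13% lower. Fbxw7 came nearest, at -0.99, and passed the step with a pseudocount of 0.1 FPKM (-1.11) and in its transcript of highest mean, NM_080428 (-1.10). Over all settings its untreated difference ran from -1.11 to -0.67. After Adriamycin, Mycn was 3.66-fold higher in p53-/- cells and Fbxw7 (-2.50), Mxd4 (-1.46) and Mxd1 (-1.12) were lower, where 6.70% of all genes were higher and 13.0% lower. Of the genes past the step there, 34.0% were higher as deposited and 44.2% under quantile normalization. These contrasts share libraries with the responses and are not further evidence. Of the 11 fibroblast markers past 1 FPKM in some library, 10 were higher by the step in untreated p53-/- cells, all but Fn1 (0.89). In treated p53-/- cells 10 were higher, all but Pdgfrb (0.42). The part of these markers in the differences of the 10 genes was not tested. Within the genotypes, 0 of the 11 were past the step in the p53-/- response (median -0.09), and 1, Col1a1, was higher in the p53+/+ response (median 0.00). With a pseudocount of 5 FPKM the differences of Mxd4 (-0.96) and Mxd1 (-0.53) fell short of the step.

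The 12 listed p53 targets were all higher by at least 1 in the p53+/+ response (median 1.98), where 11.4% of all genes were higher. In the p53-/- response (median 0.21) 0 of 12 were higher. There 0.400% of all genes were higher, so 0 of 12 does not set the list apart. The p53+/+ response of Fbxw7, at 1.47, lay within the range of these targets, 1.25 to 3.61. That range begins near the step of 1, which 11.4% of all genes passed, so lying within it does not mark a target. The directions of the list and of Fbxw7 had been seen beforehand, so neither is a test.

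In the p53+/+ response, where 11.4% of all genes were higher, 1 of 4 other bHLHZip genes of the extended network past the filter was higher. This was Mlxipl, which encodes the glucose-sensing factor ChREBP. It stood at 2.43 and 1.87 FPKM in treated and untreated p53-/- cells and at 10.9 and 1.86 FPKM in treated and untreated p53+/+ cells. Mycl (3.13 to 3.62 FPKM), Mlx and Mlxip differed by at most 0.10 in the p53+/+ response, and Mycs was listed at 0 throughout. The medians of the list were 0.16 and 0.06 in the p53-/- and p53+/+ responses.

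Of 20 listed partners of the SCF ligase and modifiers of MYC stability, 18 passed the filter. The p53-/- response held 2 lower genes and the p53+/+ response 3, with 0 higher in either, and the medians were -0.04 and -0.29. Of all genes, 0.470% had a p53-/- response of at most -1 and 2.79% a p53+/+ response of at most -1, while 0.400% and 11.4% had responses of at least 1. Aurka and Plk1, mitotic kinases that stabilise MYCN protein, were lower in both genotypes. Plk1 stood at 35.4 and 106 FPKM in treated and untreated p53-/- cells and at 29.2 and 99.0 FPKM in treated and untreated p53+/+ cells. Usp28, a deubiquitinase that opposes FBXW7 on MYC, was the other gene lower in the p53+/+ response. It stood at 54.7 and 53.7 FPKM in treated and untreated p53-/- cells and at 22.5 and 49.6 FPKM in treated and untreated p53+/+ cells, a response difference of 1.13. Skp2, an F-box protein that also targets MYC, had the same response difference of 1.13. Cul1, the cullin of the ligase, stood at 40.6 and 37.4 FPKM in treated and untreated p53-/- cells and at 24.8 and 45.5 FPKM in treated and untreated p53+/+ cells, short of the step. Usp36, which acts on nucleolar MYC, and Ppp2r5a, a phosphatase subunit, were past the step between genotypes, Usp36 at 1.12 after Adriamycin and Ppp2r5a at -1.30 without it. Usp28 was also past it after Adriamycin (1.25). Over all genes 6.70% were higher between treated genotypes and 3.13% lower between untreated ones.

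Genes of other FBXW7 substrates did not move as a group. Of 13 past the filter, 0 were past 1 in the p53-/- response. In p53+/+ cells Jun and Notch1 were higher and Ccne1 lower after Adriamycin, 2 and 1 genes, with a median of -0.20 over the list, where 11.4% of all genes were higher and 2.79% lower. Ccne1, which encodes cyclin E1, stood at 133 and 106 FPKM in treated and untreated p53-/- cells and at 49.3 and 145 FPKM in treated and untreated p53+/+ cells. Notch1 stood at 6.57 and 6.35 FPKM in treated and untreated p53-/- cells and at 23.8 and 8.10 FPKM in treated and untreated p53+/+ cells. Jun, a subunit of AP-1, stood at 5.79 and 5.29 FPKM in treated and untreated p53-/- cells and at 6.56 and 1.64 FPKM in treated and untreated p53+/+ cells. Mcl1, an anti-apoptotic substrate, differed by 0.67 in the p53+/+ response. Between treated genotypes Ccne1 was higher in p53-/- cells (1.42), and Notch1 (-1.71) and Mcl1 (-1.49) were lower. Between untreated genotypes Jun was higher in p53-/- cells (1.25). Over all genes 6.70% were higher and 13.0% lower between treated genotypes, and 3.49% higher between untreated ones. These are transcript levels, and the action of FBXW7 on the proteins was not measured.

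Of 32 growth and metabolism genes listed as MYC targets, 0 stood higher and 1 lower in p53-/- cells after Adriamycin, and 1 stood higher and 7 lower in p53+/+ cells after Adriamycin. Over all genes the shares were 0.400% higher and 0.470% lower in p53-/- cells, and 11.4% higher and 2.79% lower in p53+/+ cells. Their medians were -0.11 and -0.64 in the p53-/- and p53+/+ responses, beside 0.07 and 0.05 for all genes. In these responses 24 and 29 of the 32 lay below 0, and the share of all genes below 0 was not counted. The 7 lower in p53+/+ cells were Hk2, a hexokinase, Tfrc, the transferrin receptor, the nucleolar proteins Nop56 and Nop58, the cyclin Ccnd2, the purine synthesis enzyme Ppat and the repair nuclease Apex1. Hk2 stood at 95.6 and 130 FPKM in treated and untreated p53-/- cells and at 43.5 and 127 FPKM in treated and untreated p53+/+ cells. Tfrc stood at 79.2 and 66.9 FPKM in treated and untreated p53-/- cells and at 30.5 and 77.3 FPKM in treated and untreated p53+/+ cells. Cad, the pyrimidine synthesis enzyme, went against the list at 89.0 and 98.7 FPKM in treated and untreated p53-/- cells and 207 and 84.7 FPKM in treated and untreated p53+/+ cells. The single lower gene of the p53-/- response was Nme2, at 83.0 FPKM in treated and 178 FPKM in untreated cells, whose reads may be shared with the related gene Nme1.

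Of 8 genes listed as repressed by MYC, 3 had p53+/+ responses of at least 1, 2 had responses of at most -1, and 0 were past 1 in the p53-/- response. Beside this stand 11.4% of all genes at 1 or more and 2.79% at -1 or less in p53+/+ cells. The list medians were 0.03 and -0.15 in the p53-/- and p53+/+ responses. Cdkn2b, an inhibitor of CDK4 and CDK6, stood at 7.61 and 5.97 FPKM in treated and untreated p53-/- cells and at 12.5 and 0.911 FPKM in treated and untreated p53+/+ cells. Cdkn1a (1.67), also a p53 target, and Btg1 (1.25) were the other higher genes, and Ndrg1 (-1.78) and Ndrg2 (-1.06) the lower ones.

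Corepressors and cofactors had few members past the step. Medians in the p53-/- and p53+/+ responses were -0.01 and -0.34 for the SIN3 list, -0.09 and -0.18 for the MYC cofactors and -0.01 and -0.39 for the MGA complex. In the SIN3 list 1 of 11 was lower in the p53+/+ response, the scaffold Sin3a, at 62.7 and 61.7 FPKM in treated and untreated p53-/- cells and 26.9 and 73.1 FPKM in treated and untreated p53+/+ cells. Sin3b was higher in p53-/- cells both with Adriamycin (1.08) and without it (1.28), and Sap30 (1.31) and Sin3a (1.19) after Adriamycin. Among 15 MYC cofactors 1 was lower in the p53+/+ response, the kinase Pim1, at -1.33. Of 14 genes of the MGA complex 1 was lower there, Cbx3, a heterochromatin protein, at 49.1 and 48.6 FPKM in treated and untreated p53-/- cells and 23.9 and 56.9 FPKM in treated and untreated p53+/+ cells. Yaf2 of the same complex was higher in p53-/- cells with Adriamycin (1.58) and without it (1.12), and Cbx3 with Adriamycin (1.01). Beside these genotype differences, 6.70% of all genes were higher in p53-/- cells with Adriamycin and 3.49% without it. None of these 3 lists had a gene past 1 in the p53-/- response, where 52 of all 12991 genes were higher and 61 lower, and the 1 lower gene of each in the p53+/+ response stands beside 2.79% of all genes.

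Of 14 genes listed as repressed by MGA and MAX, most of them germ cell genes, 13 passed the filter of 1 FPKM. Dazl, for one, stood at 15.0 and 14.8 FPKM in treated and untreated p53-/- cells and at 29.5 and 27.3 FPKM in treated and untreated p53+/+ cells. In the p53+/+ response 1 was higher and 1 lower, beside 11.4% and 2.79% of all genes, with list medians of -0.03 and -0.02 in the p53-/- and p53+/+ responses. Tex101 was the 1 higher in p53+/+ cells, at 2.81 and 3.45 FPKM in treated and untreated p53-/- cells and 2.79 and 0.466 FPKM in treated and untreated p53+/+ cells. Zfp42, also an ES cell marker, was the 1 lower, at -1.76.

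**Figure D5:**
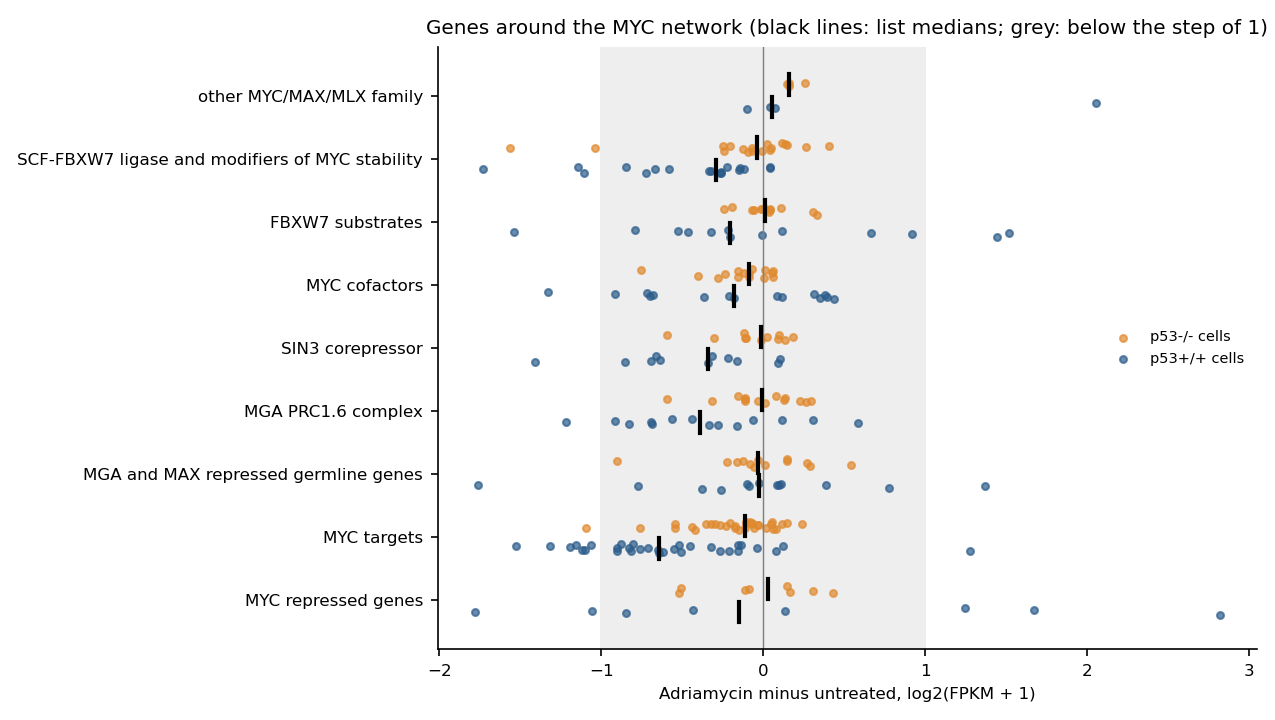
Response to Adriamycin on the log2(FPKM + 1) scale of the genes past the filter in 9 lists around the MYC network, in p53-/- cells (orange) and p53+/+ cells (blue). Black lines are list medians; the MYC target medians lie at -0.11 and -0.64 in p53-/- and p53+/+ cells.

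E-boxes of the form CACGTG, the site bound by MAX dimers and a palindrome counted once, were searched on both strands of the RefSeq promoter windows. The 13 windows cover 9 of the 10 genes, and Myc was not searched. E-boxes occurred in 3 of the 13 windows and in 7.15% of all 32851 windows. The 3 sites are shown with 12 bases on each side and the E-box in capitals, from Mxd4 (chr5:34187912-34187941, minus strand, beginning 219 bases before the start), Mnt (chr11:74830789-74830818, plus strand, 123 bases before it) and Max (chr12:76962234-76962263, minus strand, across the start), all in GRCm38.p6.
Mxd4: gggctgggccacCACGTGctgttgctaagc
Mnt: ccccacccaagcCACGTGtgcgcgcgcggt
Max: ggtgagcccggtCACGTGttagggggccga
Of these, Mxd4 was higher by the step in treated p53+/+ cells, and Mnt and Max were not. The p53 half-site consensus was found in 0 of the 13 windows and in 8.36% of all windows. The window of NM_080428 shown above holds neither motif, which says only that these letters are not in that window.

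The genes nearest to 3 members over the 4 libraries were taken by the Euclidean distance between log2(FPKM + 1) profiles, each centred on its own mean, among 9320 genes that reached 5 FPKM and had status OK. For Fbxw7 these were Kank3, Vmac, Hormad1, Cacng6 and Usp17le, at distances of 0.0879 to 0.198. Kank3, a cytoskeletal ankyrin repeat protein, stood at 16.05 and 16.5 FPKM in treated and untreated p53-/- cells and at 93.0 and 31.3 FPKM in treated and untreated p53+/+ cells. Usp17le belongs to a family of close copies, and its value is uncertain. For Mycn they were Pcbp4, Rbpms, Urb2, Nefl and Kdm3a (0.158 to 0.197), of which Pcbp4, an RNA-binding protein, stood at 55.2 and 64.8 FPKM in treated and untreated p53-/- cells and at 16.01 and 45.7 FPKM in treated and untreated p53+/+ cells. For Myc they were Zdbf2, Rps4x, Rpl24, Kif11 and Smarcad1 (0.0572 to 0.109). With 4 libraries many genes lie close to any profile.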

How the data were processed

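Per the file headers, the authors deposited 1 transcript table per library, with the columns of a Cufflinks tracking table: the FPKM of each RefSeq transcript, its lower and upper bound and its read coverage. Per the submitters' processing notes, CASAVA 1.8.1, TopHat2 2.0.5, TopHat and Cufflinks were used with mm9, and their roles, the Cufflinks version and the annotation are not given in the sources used here. As FPKM are scaled values, count models do not apply to them, and with 1 library per group nothing was tested.

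Of 30769 rows, 29700 were named from RefSeq (GRCm38.p6), 178 from GENCODE M21 and 891 were not named. Short RNA genes (731 rows) were left out. Transcripts of a gene were summed, and genes under 1 FPKM in all libraries were left out of counts. Differences are of log2(FPKM + 1), and 1 is the step for higher or lower. Bounds are the deposited ones and cover counting and assignment error only. They are given per transcript where they hold the FPKM, as for 15 of the 17 rows in every library. Positions are mm9 unless GRCm38 is named. In each library 1528 to 2040 rows lay outside their own bounds.

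The members and lists were chosen with earlier results of these data known, and the direction of the p53 target list and of Fbxw7 had been seen. Beside the 10 genes and their transcripts, named genes are list members past the step, up to 4 others per list with the largest p53+/+ responses, and the 5 nearest genes of Fbxw7, Myc and Mycn; Pou5f1, Nanog, Sox2, Mycl, Mlx, Mlxip, Mycs and Dazl were named after their values were seen. The calculations, in Python 3.11.15 with pandas 2.3.3, numpy 2.4.6 and matplotlib 3.10.9, were tested on simulated data. The other settings tried were a pseudocount of 0.1 or of 5 FPKM, a filter of 5 FPKM or none, the transcript of highest mean, upper quartile, median ratio and quantile scaling, and rows within their own bounds.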

Additional observations from a re-analysis of the deposited data

Results flagged for a closer look

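In 4 of the 10 genes the response to Adriamycin had opposite signs in the genotypes, each from 1 library against 1, and the difference was not tested. For Fbxw7 the p53-/- response minus the p53+/+ response was -1.51, from responses of -0.04 and 1.47. For Mxi1 it was 0.66, from 0.12 and -0.54. For Mnt it was 0.57, from 0.31 and -0.26, and for Max it was 0.55, from 0.24 and -0.31. All these single responses except that of Fbxw7 in p53+/+ cells were below the step of 1. The share of all genes with opposite signs was not counted, so 4 of 10 does not set these genes apart. With the transcript of highest mean in place of the sum, the p53-/- response was -0.03 for Mxi1, of the same sign as its p53+/+ response, and 0.00 for Fbxw7, so the opposite signs of these 2 genes depend on the summing. The signs of Mnt and Max held under the other settings run.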

How the results depend on the processing

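Of 11 differences of these genes past the step of 1, 6 stayed past it under every alternative run that gave a value. Over 91 values 83 stayed past it, 8 did not and 0 changed sign. Part of the 91 could not change. The filters leave the FPKM of a gene as it is, and a single transcript row equals its sum. All rows of Fbxw7 and Mxd1 lay within their own bounds, and Mycn and Mxd4 have no value under that setting. The tally is thus no measure of robustness. The p53+/+ response ran from 1.22 to 3.62 for Fbxw7, from 1.09 to 1.95 for Mxd4, from -1.45 to -1.15 for Mycn and from 0.51 to 1.42 for Mxd1. The 8 values short of the step were those of Mxd1 in the p53+/+ response (0.51 with a pseudocount of 5 FPKM, 0.98 with upper quartile scaling, 0.71 with quantile normalization) and between genotypes after Adriamycin (-0.53 and -0.93 with that pseudocount and quantile normalization), and, with that pseudocount, those of Mxd4 after Adriamycin (-0.96) and of the response differences of Mxd4 (-0.96) and Mycn (0.92).

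Counts among the 10 genes differed from those reported as follows. With a pseudocount of 0.1 FPKM 1 was lower between untreated genotypes and 3 had a lower response difference. With 5 FPKM 2 were higher in the p53+/+ response, 1 was lower between treated genotypes, and 0 had a higher and 1 a lower response difference. A filter of 5 FPKM, under which Mxd1 has no value, left 2 higher in the p53+/+ response and 2 lower between treated genotypes. With the transcript of highest mean 2 were lower in the p53+/+ response, 2 lower between untreated genotypes and 2 had a higher response difference. Upper quartile scaling left 2 higher in the p53+/+ response, and quantile normalization 2 higher and 2 lower there and 2 lower between treated genotypes. With rows within their own bounds, where Mycn and Mxd4 have no value, the p53+/+ response had 2 higher and 0 lower, 0 were higher and 2 lower between treated genotypes, and 0 had a higher and 1 a lower response difference.

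With a 1.5-fold step, chosen after seeing the data, 3 were lower in the p53+/+ response (11.3% of all genes), 1 was higher and 2 lower between untreated genotypes (10.3% and 10.9%), 3 were higher between treated ones (17.7%), and 3 had a higher and 3 a lower response difference (13.8% and 19.8%).

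Over all genes, a pseudocount of 0.1 FPKM gave 188 higher and 97 lower in the p53-/- response, 615 lower in the p53+/+ response, 849 higher and 877 lower between untreated genotypes and 758 with a higher response difference. A pseudocount of 5 FPKM gave 20 and 31 in the p53-/- response, 628 and 153 in the p53+/+ response, 136 and 118 between untreated and 336 and 792 between treated genotypes, and 159 and 611 response differences. A filter of 5 FPKM gave 29 higher in the p53-/- response and 289 higher between untreated genotypes. The transcript of highest mean gave 79 and 92 in the p53-/- response, quantile normalization 587 lower in the p53+/+ response, and rows within their bounds 31 lower in the p53-/- response. The causes were not tested.

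No paired analysis was possible because each group has 1 library, and no library was left out for the same reason.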
